A study of Homo sapiens with 26 samples.

Results

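The genes described here encode the proteins of the cytosolic ribosome. They were chosen by symbol: autosomal protein-coding genes of the GENCODE 44 annotation lifted to GRCh37 whose name is RPL or RPS followed by a number and at most 1 letter, or RPLP0, RPLP1 or RPLP2. The rule itself uses no measured value, but genes and lists were chosen with earlier results of these data known. The rule gave 76 genes, 46 of the large subunit (RPL and RPLP) and 30 of the small subunit (RPS), out of 18978 autosomal protein-coding genes with a canonical transcript. The tissue-restricted or duplicate paralogues RPL3L, RPL10L, RPL39L and RPS27L matched the rule and are included, which leaves 72 others. A peak belonged to a gene when it overlapped the gene body or the 2 kb on either side.

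In the study, HALO-tagged proteins were immunoprecipitated through their tag from BJ human foreskin fibroblasts, an established cell line, and the recovered DNA was sequenced (ChIP-seq). Each group expressed 1 HALO-tagged protein ectopically for 48 h: FOXA1, 1 of the FOXA1 variants FOXA1dbd, FOXA1nhaa and FOXA1rraa, or HNF4A. All groups therefore share the cell line, the tag, the antibody and the time, and differ in the expressed protein. The labels give 2 ChIP libraries per protein, but the files hold 1 peak list for each, and whether libraries were pooled or inputs used is not given in the sources used here. There is thus no replicate error, no test between proteins is possible, and the files give no read depth. FOXA1 had 155652 peaks, FOXA1dbd 28831, FOXA1nhaa 105591, FOXA1rraa 71202 and HNF4A 38291. The samples with HALO-tagged H2B were not analysed here, and peak lists hold no expression values with which to check the cell type.

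The cytosolic ribosome translates nuclear-encoded mRNAs, and its proteins are needed in near-equal amounts in every dividing cell. Their genes are short, are transcribed at high rates in nearly all tissues from compact promoters without tissue restriction, and make mRNAs that start with a terminal oligopyrimidine tract. FOXA1 is a forkhead protein that can bind sites in closed chromatin of endoderm-derived tissues, and HNF4A is a nuclear receptor of liver, gut and kidney. Fibroblasts normally make neither in quantity, so these lists show where the introduced proteins were found near genes that the host cell already uses.

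An early caution concerns 1 list. All 41 FOXA1rraa peaks at the ribosomal protein genes had the same chromosome, start and end as a peak of another list: 16 were also FOXA1 rows and 25 were also FOXA1nhaa rows. In the whole FOXA1rraa list 23217 rows were also FOXA1 rows, 41253 were also FOXA1nhaa rows and 6733 were in neither. At these genes the FOXA1rraa list thus held no peak of its own, and its values are given only as membership of that list. Without the rows it shares with FOXA1, 19 ribosomal protein genes had a FOXA1rraa peak in place of 24.

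The sequences below show the kinds of site that the results turn on, read from GRCh37 in the direction of the gene, 5′ to 3′. The first 3 are parts shared by overlapping peaks. In RPL26, a large-subunit protein gene, the stretch lay upstream, from -1941 to -1880 bp relative to the start, at chr17:8288391-8288452, and was the only place near any of the 76 genes where peaks of all 5 lists overlapped. In RPL32 it lay in an intron at chr3:12879193-12879282, inside rows of the 4 FOXA1 lists. The FOXA1dbd row there has the coordinates of the FOXA1 row, and the FOXA1rraa row those of the FOXA1nhaa row. In RPL24 it lay in an intron at chr3:101402391-101402511, inside FOXA1 and FOXA1dbd peaks. Capitals mark a forkhead core, TGTTTAC or TATTTAC, on either strand; the RPL26 stretch had none.
RPL26: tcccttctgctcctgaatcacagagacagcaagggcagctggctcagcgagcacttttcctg
RPL32: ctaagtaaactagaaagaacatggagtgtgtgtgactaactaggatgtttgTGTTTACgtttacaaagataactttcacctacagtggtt
RPL24: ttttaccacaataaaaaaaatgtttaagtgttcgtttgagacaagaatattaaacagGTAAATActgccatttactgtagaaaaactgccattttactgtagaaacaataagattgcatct

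The next 4 are the 120 bases before the start of 2 genes with an HNF4A peak at the promoter, RPL21 (chr13:27825575-27825694) and RPS7 (chr2:3622730-3622849), and of 2 genes without a peak in any list, RPL29 (chr3:52029912-52030031) and RPS14 (chr5:149829303-149829422). They are single examples and do not represent the motif counts given later. CCGGAAG was in 13 of the 38 genes with an HNF4A promoter peak and in 13 of the 38 without. Those counts use 250 bp before to 50 bp after the start. In that window RPL21 also has AAGATGGCG, outside the bases printed. Capitals mark the core of an ETS-family site, CCGGAAG, or the GC box GGGCGG, on either strand.
RPL21: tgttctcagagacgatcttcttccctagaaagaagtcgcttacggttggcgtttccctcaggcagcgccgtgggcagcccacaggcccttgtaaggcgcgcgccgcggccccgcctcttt
RPS7: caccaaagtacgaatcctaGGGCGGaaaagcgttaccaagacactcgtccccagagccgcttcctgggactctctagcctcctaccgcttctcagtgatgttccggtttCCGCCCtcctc
RPL29: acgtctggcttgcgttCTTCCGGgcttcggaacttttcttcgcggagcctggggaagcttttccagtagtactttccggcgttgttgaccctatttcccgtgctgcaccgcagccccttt
RPS14: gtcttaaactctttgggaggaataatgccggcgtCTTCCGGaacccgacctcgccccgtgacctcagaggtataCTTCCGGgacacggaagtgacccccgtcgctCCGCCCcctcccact

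HNF4A was the protein found at most ribosomal protein genes. It had a peak at 51 of 76 (67.1%, 95% exact Clopper-Pearson interval 55.4 to 77.5, which covers counting error over genes only), against 64.5% of all genes. FOXA1 had a peak at 34 (44.7%, 33.3 to 56.6), against 59.4% of all genes. The variants followed, with FOXA1nhaa at 26 (34.2% against 54.4%), FOXA1rraa at 24 (31.6% against 48.1%) and FOXA1dbd at 16 (21.1% against 34.8%). For FOXA1 and its 3 variants the share over all genes lay above the interval for the ribosomal protein genes, and for HNF4A it lay inside.

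Gene length differed between the 2 sets and moved with these shares. The ribosomal protein genes had a median length of 5439 bp, from 772 bp (RPL10L) to 80356 bp (RPL37A), and the median over all genes was 28010 bp. Among genes no longer than RPL37A, the background was 59.7% for HNF4A, 49.8% for FOXA1, 43.1% for FOXA1nhaa, 36.7% for FOXA1rraa and 22.4% for FOXA1dbd. Each of these lay inside the interval for the ribosomal protein genes.

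The difference from other genes of like length varied with the class and the protein. Of the 34 that span up to 5 kb, 21 (61.8%, 43.6 to 77.8) had an HNF4A peak, where the background was 34.7%. In the same short genes FOXA1 had a peak at 9 (26.5% against 17.0%), and FOXA1dbd, FOXA1nhaa and FOXA1rraa had a peak at 3 each (8.82%), against 4.39%, 12.4% and 8.66%. Of the 24 that span over 5 and up to 10 kb, FOXA1 had a peak at 12 (50%, 29.1 to 70.9) against 27.4%, and HNF4A at 16 (66.7%) against 50.8%. In this middle class FOXA1dbd had a peak at 7 (29.2% against 9.58%), and FOXA1nhaa and FOXA1rraa at 11 each (45.8%) against 20.8% and 16.3%. For FOXA1 and its variants these backgrounds lay below the intervals, the lowest bound being 12.6% for FOXA1dbd. Of the 18 over 10 kb each background lay inside the interval of its share: 13 (72.2%) against 71.9% for FOXA1, 6 (33.3%) against 44.1% for FOXA1dbd, 12 (66.7%) against 67.0% for FOXA1nhaa, 10 (55.6%) against 60.0% for FOXA1rraa and 14 (77.8%) against 71.9% for HNF4A.

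**Figure D1:**
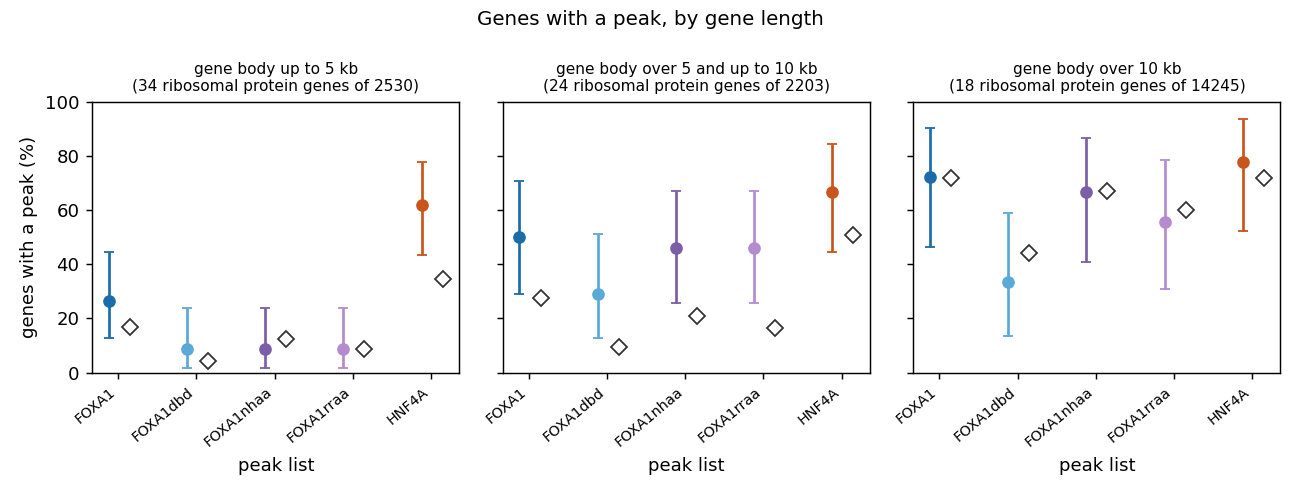
Share of genes with a peak (y axis, percent) in each of 5 peak lists (x axis), in 3 classes of gene length; filled circles are ribosomal protein genes with 95% Clopper-Pearson intervals and open diamonds are all genes of the class. In genes up to 5 kb the HNF4A circle stands at 61.8% above its diamond at 34.7%, and over 10 kb circles and diamonds lie close together.

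Within the family, FOXA1 peaks were mostly at the genes of lower G+C content. The 34 ribosomal protein genes with a FOXA1 peak had a median G+C content of 45.1% over the gene and its 2 kb flanks, and the 42 without one had 51.5%. Of the 38 genes below the family's median of 47.7%, 27 had a FOXA1 peak, and of the 38 at or above it, 7 had one. All genes cut at the same value showed the same order, 79.0% below and 29.8% above. HNF4A showed no such split, with 24 of 38 below (background 63.3%) and 27 of 38 above (background 66.2%). Among the 58 ribosomal protein genes up to 10 kb, the medians were 45.8% with and 51.2% without a FOXA1 peak, so the order also held among short genes. The genes with a FOXA1 peak were also longer, with medians of 7441 bp with and 4310 bp without. Among those up to 10 kb the medians were 5548 bp with and 4056 bp without, so length and composition were not separated.

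The 5 lists divided the family into a few patterns. No list had a peak at 15 genes (19.7%, against 18.6% of all genes), which include RPL10L, RPL11, RPL13A, RPL19 and RPL29. RPL11 is a partner of RPL5 in the 5S ribonucleoprotein, and RPL10L is a retrocopy used mainly in testis. At 24 genes (31.6%) HNF4A had a peak and no FOXA1 protein did, against 16.7% of all genes. FOXA1 alone had a peak at RPS12 and RPS13, and FOXA1nhaa alone at RPS10. FOXA1 and HNF4A both had a peak at 25 genes (32.9% against 45.2%). These pattern shares, and that of all 5 lists below, were not matched for gene length (medians 5439 and 28010 bp).

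All 5 lists had a peak at 11 genes (14.5%, 7.45 to 24.4), against 26.0% of all genes. They were RPL5, RPL7, RPL26, RPL31, RPL37, RPL37A, RPL39L, RPLP1, RPS3, RPS6 and RPS29. A shared gene was seldom a shared site: among these 11, only at RPL26 did peaks of all 5 lists overlap at 1 place. The authors' score there was 62 for FOXA1, 61 for FOXA1dbd, 39 for FOXA1nhaa and 141 for HNF4A. By rank within each list it was a low peak for FOXA1nhaa (percentile 3.23) and FOXA1 (13.7), a middling one for FOXA1dbd (49.5) and a higher one for HNF4A (67.4). Scores come from the authors' peak caller and are compared only within a list.

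**Figure D2:**
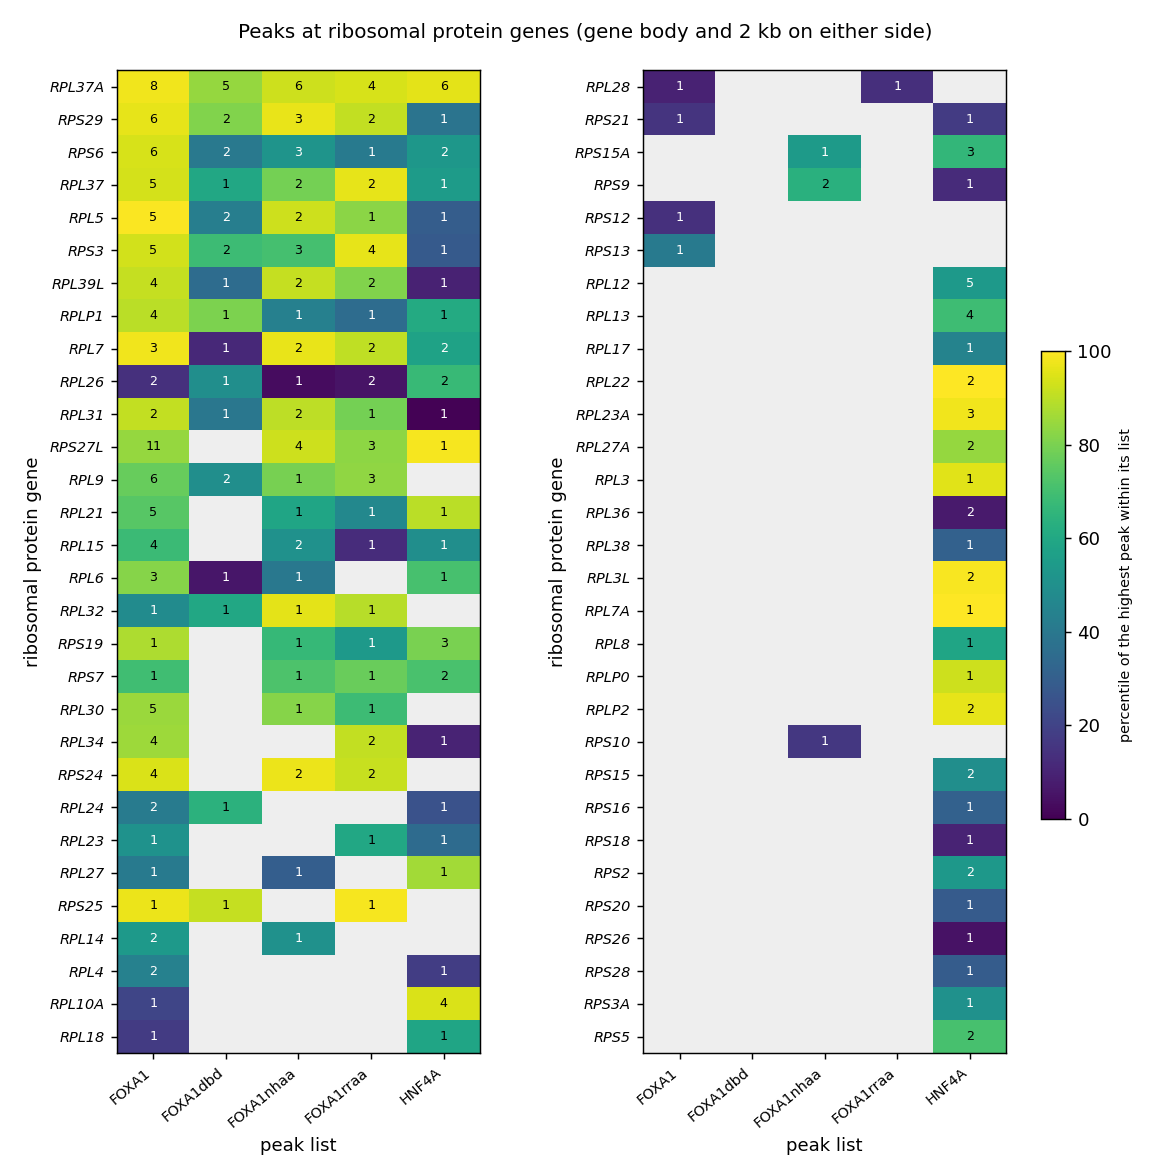
Of the 61 ribosomal protein genes with a peak in any list, 60 are drawn (rows, both panels) against the 5 peak lists (columns); numbers are peaks per gene, colour is the percentile of the gene's highest peak within its list, and grey means no peak. The upper left holds the 11 genes with peaks of all 5 lists, and the right panel is mostly HNF4A alone.

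The large-subunit genes held the highest FOXA1 peaks. The highest lay 10933 bp after the start of RPL5, beyond its end, with a score of 573 at percentile 99.6. RPL5 binds 5S rRNA and, with RPL11, restrains MDM2. The same place held a FOXA1dbd peak of score 57 and a FOXA1nhaa peak of score 198, and the only HNF4A peak of RPL5 was a score of 71 at 65 bp before the start. Next came RPL7 with a score of 434 at 736 bp after the start, and RPL37A, a zinc-binding protein, with 428 in an intron 57568 bp after the start. In FOXA1nhaa the RPL7 site scored 248 (percentile 96.7), and FOXA1dbd had no peak at that site. The fourth was RPS25, a small-subunit protein used by viral internal ribosome entry sites, where FOXA1 scored 406 at 4330 bp after the start, beyond the gene's end.

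The leading genes of FOXA1dbd and FOXA1nhaa were partly those of FOXA1. The 4 highest FOXA1dbd peaks belonged to RPS25 (score 125, percentile 91.3), RPL37A (104), RPS29 (96) and RPLP1 (95), and each overlapped a FOXA1 peak. The 4 leading genes of FOXA1nhaa were RPS24 (259, percentile 97.2), RPS29 (250), RPL7 (248) and RPL32 (236). RPS24 had 4 FOXA1 peaks and no FOXA1dbd peak, whereas RPS25 had no FOXA1nhaa peak. RPL32, whose shared intron sequence is printed above, ranked at percentile 48.1 for FOXA1, 59.8 for FOXA1dbd and 96.0 for FOXA1nhaa. In the FOXA1rraa list the leading genes were RPS25 (406), RPL37 (327), RPS3 (322) and RPL37A (286), all by rows that are also FOXA1 rows.

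RPS27L, a p53-responsive paralogue of RPS27, had the most FOXA1 peaks, 11, with scores from 36 to 241. For 6 of its peaks, those 19039 bp or more after the start, the nearest protein-coding start was that of LACTB, not of RPS27L. RPL37A followed with 8 peaks, and RPL9, RPS6 and RPS29 had 6 each. Of the 6 at RPL9, 2 have the same score, 200, and peak names that differ only by a suffix. RPS27L and RPL37A are 2 of the longest in the family, at 32150 and 80356 bp. Over the family, 12 of the 34 genes with FOXA1 held a single FOXA1 peak.

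Peaks were also counted per length of gene window. FOXA1 had 9.85 peak centres per 100 kb of ribosomal protein gene window and 8.01 per 100 kb over all gene windows, and for genes up to 10 kb the values were 10.6 and 4.07. HNF4A had 7.64 against 2.14, and 11.4 against 7.83 for genes up to 10 kb. FOXA1dbd had 2.21 against 1.41 and FOXA1rraa 3.68 against 3.73, while FOXA1nhaa was lower at the ribosomal protein genes, 4.14 against 5.34. In genes up to 10 kb FOXA1nhaa was at 3.34 against 2.61, FOXA1rraa at 3.74 against 1.79 and FOXA1dbd at 2.36 against 0.909, so the order turned for FOXA1nhaa and FOXA1rraa.

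Promoter peaks were counted in a window of fixed width. Within 1000 bp of the start of the canonical transcript, HNF4A had a peak at 38 genes (50%, 38.3 to 61.7), against 44.4% of all genes. Among the 34 genes up to 5 kb it was 17 (50%, 32.4 to 67.6), where 28.0% of all genes of that length had one, and among the 18 over 10 kb it was 7 (38.9%) against 48.2%. FOXA1 had a promoter peak at 14 (18.4%, 10.5 to 29.0) against 9.75%, FOXA1nhaa at 6 (7.89%) against 6.52%, FOXA1rraa at 5 (6.58%) against 4.14% and FOXA1dbd at 1, RPS29 (1.32%), against 2.07%. The FOXA1 background lay just below the interval and the others inside theirs. In genes over 10 kb FOXA1 had a promoter peak at 7 of 18 (38.9%, 17.3 to 64.3) against 11.1%. In genes up to 5 kb it had one at 4 of 34 (11.8%, 3.30 to 27.5) against 5.65%. Over 5 and up to 10 kb it had one at 3 of 24 (12.5%, 2.66 to 32.4) against 5.86%. Only over 10 kb did the background lie outside the interval. Counted from every annotated start of each gene, FOXA1 had a promoter peak at 28.9% of the ribosomal protein genes and 28.0% of all genes. In the 250 bp before the start 5 genes had a FOXA1 peak (6.58% against 1.55% of all genes). From the start to 250 bp after it 1 gene had one, RPS27L (1.32% against 0.848%), and from 250 to 500 bp 0 had one (against 1.15%).

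Of the 84 HNF4A peaks of the family, 50 (59.5%) had their centre within 1000 bp of a member's start. The windows around these short genes always include the promoter, so this share describes the peaks and is set against no list. They fell on both sides, 26 before and 24 after the start, and 46 of the 50 had a ribosomal protein gene as the nearest protein-coding start. For FOXA1 12 of 110 centres (10.9%) were at promoters, 28 lay in exons of any annotated transcript, 48 in introns, 9 upstream and 13 downstream. The same division for FOXA1nhaa gave 4, 14, 21, 3 and 6 of 48, and for FOXA1dbd 1, 8, 10, 2 and 4 of 25. Of the 48 FOXA1 centres in introns, 34 lay outside the canonical transcript of the gene. By density windows, 54 of 107 FOXA1 centres and 17 of 45 FOXA1nhaa centres lay at the genes up to 10 kb, and the others at longer genes such as RPL37A and RPS27L.

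**Figure D3:**
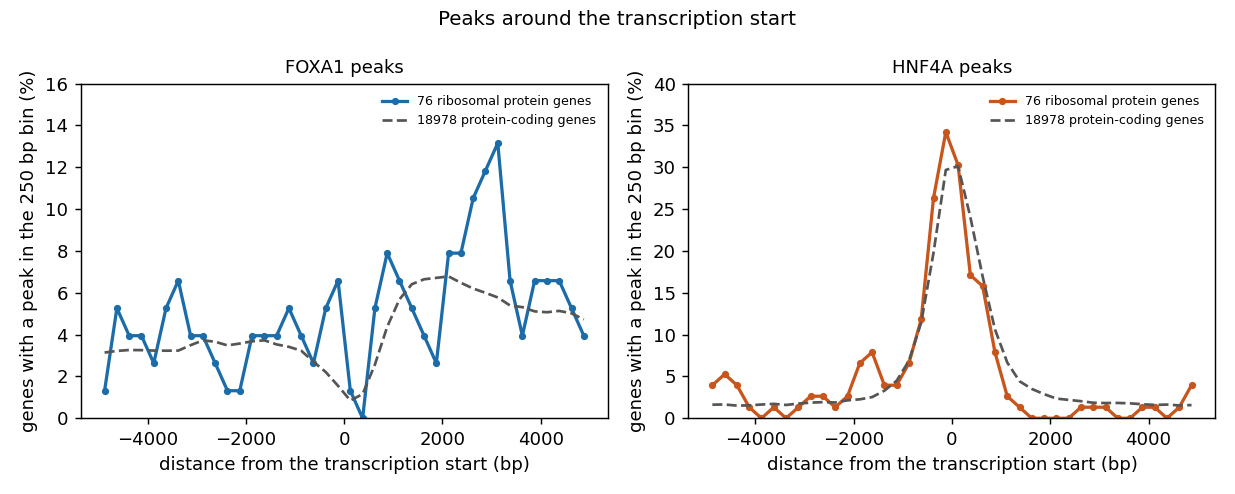
Share of genes with a peak overlapping each 250 bp bin (y axis, percent, different scales) against distance from the transcription start (x axis, bp), for FOXA1 (left) and HNF4A (right); solid lines are the 76 ribosomal protein genes and dashed lines all 18978 genes. HNF4A peaks at 34.2% just before the start, where all genes reach 29.7%, and FOXA1 is at 0 between 250 and 500 bp after the start, where all genes are at 1.15%.

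Promoter peaks were also ranked within their list. The highest HNF4A promoter peak of the 38 genes had a median percentile of 49.97 within the list (29.4 to 58.8, an interval over genes), below the median of 62.9 over the 8431 genes with an HNF4A promoter peak. The values ran from percentile 0.477 at RPL31 (score 25, 132 bp before the start) to 99.7 at RPL7A (score 1003, 531 bp before the start). For the RPL7A peak the nearest start was that of the divergent neighbour MED22. Other high ones were RPS27L with 715 at 128 bp before the start, RPLP2 with 485 and RPL3 with 442. For FOXA1 the 14 promoter genes had a median percentile of 51.1 beside 49.9 over all genes with one.

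At 30 of the 51 genes with HNF4A the highest peak overlapped the promoter window, at 8 a promoter peak was not the highest, and 13 had no promoter peak. RPL22, an RNA-binding protein of the large subunit, had the highest of the family, a score of 1025 at 6218 bp before the canonical start, nearest to the start of RNF207. Its promoter peak scored 73. RPL3L, the heart and skeletal muscle paralogue of RPL3, had 761 at 4900 bp before the start, nearest to NDUFB10. RPL23A had 603 at 6145 bp after the start, nearest to TLCD1. In all, 23 of the 84 HNF4A peaks had another gene's start nearer than a ribosomal protein start, as had 20 of the 110 FOXA1 peaks.

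Both FOXA1 and HNF4A were found at the promoters of 9 genes (11.8%, 5.56 to 21.3), against 5.12% of all genes. By the percentile of the FOXA1 promoter peak they began with RPL7 (97.9), RPS19 (87.6), RPS27L (81.6), RPS29 (74.7), RPL21 (68.0) and RPL27 (40.8). Having both at a promoter rarely meant the same place. At RPL21 FOXA1 lay 337 bp before the start with a score of 170 and HNF4A 112 bp after it with 297. At RPS29 FOXA1 lay 771 bp before and HNF4A 229 bp before the start. Peaks of the 2 proteins overlapped at promoters only in RPS27L (FOXA1 score 166, HNF4A 715) and RPL27 (106 and 255). Over the whole family 5 of the 110 FOXA1 peaks (4.55%, 1.49 to 10.3) overlapped an HNF4A peak, against 1.70% of the FOXA1 list. The other 3 were at RPL10A, RPL26 and RPS3. Counted from HNF4A, 5 of its 84 peaks (5.95%, 1.96 to 13.3) overlapped a FOXA1 peak, against 6.81% of the HNF4A list. The position of the peaks was not matched in either count.

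The peaks of the 2 proteins differed in base composition at these genes. The central 200 bp of HNF4A peaks had a median G+C of 62.8% (whole list 52.5%), and those of FOXA1 peaks 35% (whole list 32.5%). The windows of these short genes always include the promoter. A difference from the whole list therefore cannot be told apart from the position of the peaks. FOXA1 peaks with centres within 500 bp of a start were the exception among FOXA1 peaks: the 5 at RPL21, RPL27, RPL4, RPS13 and RPS27L had a G+C from 50% to 57%. FOXA1dbd (34%) and FOXA1nhaa (36.5%) were close to FOXA1. The FOXA1rraa value (35%) comes only from rows shared with FOXA1 or FOXA1nhaa and is no separate observation.

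**Figure D4:**
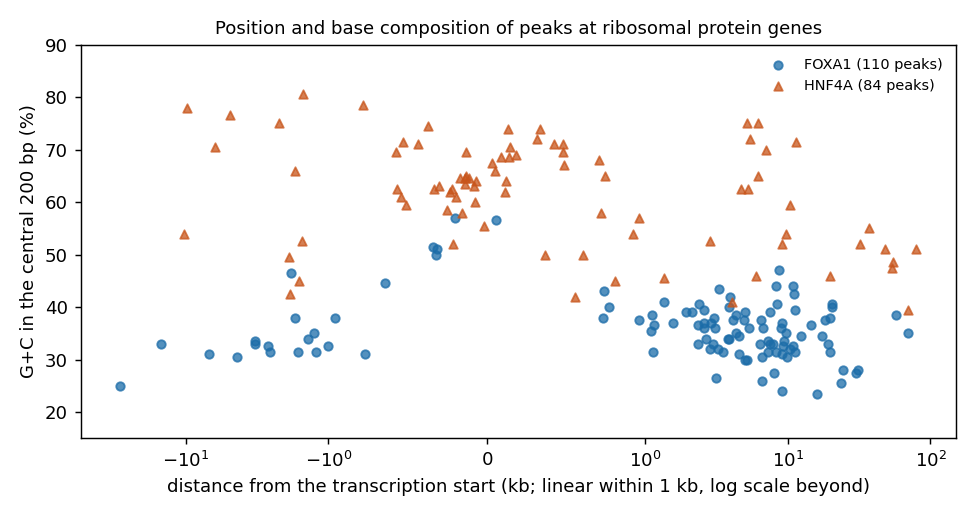
G+C content of the central 200 bp (y axis, percent) of each peak at the ribosomal protein genes against its distance from the start (x axis, kb, linear within 1 kb and log beyond), for 110 FOXA1 peaks (circles) and 84 HNF4A peaks (triangles). HNF4A triangles crowd around the start with a median of 62.8%, and FOXA1 circles lie mostly after the start with a median of 35%.

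A forkhead core stood in the central 200 bp of 26 of the 110 FOXA1 peaks (23.6%), against 18.2% of the FOXA1 list, and the RPL32 and RPL24 sequences above are examples. FOXA1dbd had 6 of 25 (24% against 22.1%), FOXA1nhaa 10 of 48 (20.8% against 13.6%), FOXA1rraa 7 of 41 (17.1% against 20.02%) and HNF4A 0 of 84 (against 3.25%). The HNF4 core CAAAGTCCA was likewise in 0 of the 84 HNF4A peaks of the family and in 0.985% of the whole HNF4A list. These are exact matches of short words on both strands, so no match says only that these letters are absent from the window. As with base composition, a difference from the whole list cannot be told apart from the position of the peaks.

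Promoter motifs were counted in the genes with and without HNF4A. From 250 bp before to 50 bp after the start, CCGGAAG was in 26 of the 76 promoters (34.2%) against 14.2% of all, and AAGATGGCG, a YY1 site, in 8 (10.5%) against 2.88%. GGGCGG was in 45 (59.2%) against 61.8%. Of the 38 genes with an HNF4A promoter peak 13 had CCGGAAG, as had 13 of the 38 without. For AAGATGGCG the counts were 5 and 3, and for GGGCGG 22 and 23. The forkhead core TGTTTAC was in 0 of the 76 promoters, against 2.40% of all. The other forkhead core and the HNF4 core were also in 0, against 1.73% and 0.337% of all. The median G+C of these promoters was 61.2% with and 56.7% without an HNF4A peak, beside 63.7% over all promoters.

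The FOXA1 peaks of the family were next divided by the variants that overlapped them. Of the 110, FOXA1dbd overlapped 25 (22.7%, 15.3 to 31.7) against 17.5% of autosomal FOXA1 peaks. FOXA1nhaa overlapped 34 (30.9%, 22.4 to 40.4) against 40.1%. FOXA1rraa overlapped 39 (35.5%) against 40.1%, and without its FOXA1 rows 23 (20.9%) against 25.8%. None of the 3 variants overlapped 52 (47.3%, 37.7 to 57.0) against 41.1%, and all 3 overlapped 8 (7.27%) against 8.32%. Each background lay inside its interval. The counts for none and for all 3 use the FOXA1rraa list with its FOXA1 rows. Those rows, 16 at these genes, overlap FOXA1 by construction. Peaks of 1 gene are counted separately here and share that gene's surroundings.

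**Figure D5:**
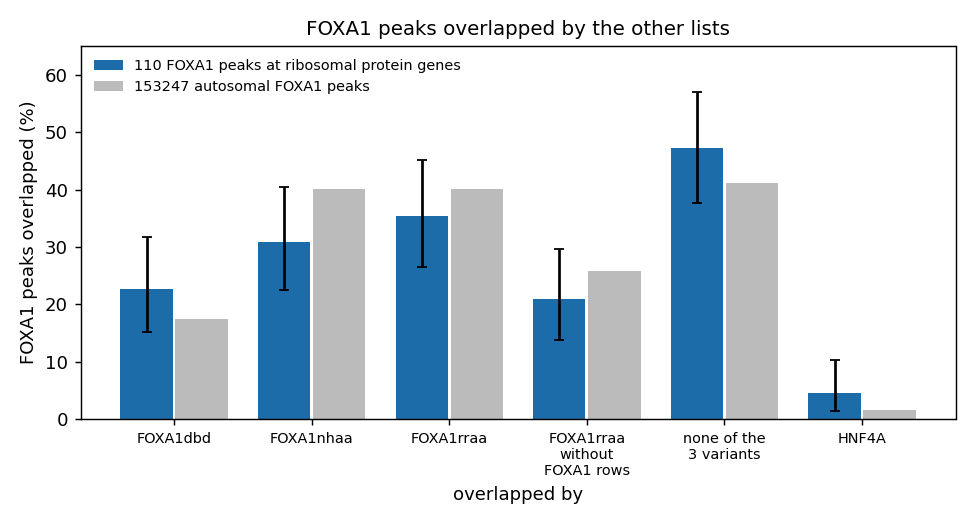
Share of FOXA1 peaks (y axis, percent) overlapped by at least 1 bp by each other list, by the FOXA1rraa list without its FOXA1 rows, or by no variant (x axis); blue bars are the 110 peaks at ribosomal protein genes with 95% Clopper-Pearson intervals and grey bars all 153247 autosomal FOXA1 peaks. Each grey bar ends inside the interval of its blue neighbour.

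Seen from the variants, all 25 FOXA1dbd peaks of the family overlapped a FOXA1 peak (96.2% in the whole list), and 3 had the very coordinates of a FOXA1 row. Of the 48 FOXA1nhaa peaks 34 did (70.8%, 55.9 to 83.0) against 58.5%, which leaves 14 outside FOXA1 peaks. Among the genes, 3 (3.95% against 5.32% of all genes) had a variant peak without any FOXA1 peak, RPS9, RPS10 and RPS15A, each by FOXA1nhaa. RPS9, a small-subunit protein near the mRNA entry channel, had 2 FOXA1nhaa peaks, the higher with a score of 107. At 6 genes (7.89% against 5.30%) FOXA1 had a peak and no variant did, and at 13 (17.1% against 31.1%) FOXA1 and all 3 variants had one. These gene counts also use the FOXA1rraa list with its FOXA1 rows, and gene length was not matched.

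Groups within the family are given by their counts. Large-subunit genes had a FOXA1 peak at 23 of 46 (50%, 34.9 to 65.1) and small-subunit genes at 11 of 30 (36.7%, 19.9 to 56.1). All genes were at 59.4%. For HNF4A the counts were 32 of 46 (69.6%) and 19 of 30 (63.3%), where all genes are at 64.5%. The 3 stalk genes, whose proteins recruit elongation factors, all had an HNF4A peak (all genes 64.5%). Among the 3 only RPLP1 had FOXA1 peaks, 4 with scores from 56 to 282. Of the 5S pair, RPL5 had peaks in every list and RPL11 in none. Of the 19 genes mutated in Diamond-Blackfan anaemia, a failure of red cell production, 10 had a FOXA1 peak (52.6%, where all genes are at 59.4%), 4 FOXA1dbd (21.1%, all genes 34.8%), 11 FOXA1nhaa (57.9%, all genes 54.4%), 8 FOXA1rraa (42.1%, all genes 48.1%) and 12 HNF4A (63.2%, all genes 64.5%). RPS19, the first gene linked to it, had a FOXA1 peak with a score of 265 at 1005 bp before the start.

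Introns of 26 of the genes host small nucleolar RNAs, which guide rRNA modification. Of these hosts 11 had a FOXA1 peak (42.3%) and 19 an HNF4A peak (73.1%), and of the 50 others 23 (46%) and 32 (64%). All genes were at 59.4% for FOXA1 and 64.5% for HNF4A. FOXA1 peaks overlapped a small nucleolar RNA at 3 hosts, RPL21, RPL37 and RPS3. A start of another protein-coding gene lay within 1000 bp of the start at 16 ribosomal protein genes. HNF4A had a promoter peak at 6 of these 16 (37.5%) and at 32 of the 60 others (53.3%), where all genes are at 44.4%.

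Other translation genes were set beside the family by promoter peaks. HNF4A had one at 12 of 14 genes for elongation factors and other proteins with oligopyrimidine mRNAs, at 14 of 17 ribosome biogenesis genes, and at 53 of 78 mitochondrial ribosomal protein genes (67.9%). The cytosolic ribosomal protein genes, at 50%, were the lowest of these 4 lists, and all genes were at 44.4%. FOXA1 had a promoter peak at 2 of 14, 3 of 17 and 13 of 78 (16.7%), close to the 18.4% of the cytosolic genes. All genes were at 9.75% for FOXA1. These lists have median lengths of 22270, 30111 and 11941 bp, longer than the cytosolic genes. Promoter shares moved with length over all genes: HNF4A had a promoter peak at 28.0% of genes up to 5 kb, 38.9% of those over 5 and up to 10 kb and 48.2% of those over 10 kb.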

How the data were processed

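The files are peak lists, 1 per construct plus a down-sampled FOXA1 list. Per the submitters' processing notes, Bowtie2 2.3.4.1, Picard, GATK 4.2.6.0, bedtools 2.27.1, MACS2 2.2.7.1 and deepTools 3.5.0 were used with hg19; their order and settings, and whether libraries were pooled, are not given in the sources used here. Each deposited list has a score for every peak. Those of the 4 constructs other than FOXA1 also give, from the authors' peak caller, a fold enrichment (a ratio), −log10 p-values and q-values, and a summit. No read counts are given, so depth is unknown.

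Groups were taken from sample titles. Python 3.11.15 (pandas 2.3.3, numpy 2.4.6, scipy 1.17.1, pysam 0.24.0) was used. Rows with equal coordinates were counted once, and overlap meant at least 1 bp. Rows with different coordinates but 1 peak name were counted separately, as were 4 of the 84 HNF4A rows at these genes. Peaks were ranked within a list by score (FOXA1) or −log10 q-value. A centre was the summit if inside its row, otherwise the midpoint, which for FOXA1 means always. No p-value was computed, since lists, genes and peaks are not replicates. The 251 genes without a canonical transcript were left out. Overlap code was tested on simulated intervals.

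The genes and lists were chosen with earlier results of these data known. The rule for named genes took the 4 with the highest peak in each list, those in all 5 lists, the 5 with most FOXA1 peaks, up to 6 without peaks and up to 6 with both proteins at the promoter. RPL3, RPLP2, RPL23A, RPS7, RPL24, RPS14, RPS9, RPS10, RPS12, RPS13, RPS15A, RPL4, RPL10A and RPL27 were added after their values were seen, as was RPLP0 by the list of stalk genes. Single values of 2 genes that the counts include are not reported here.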

Additional observations from a re-analysis of the deposited data

How the results depend on the processing

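No paired analysis was possible because no list carries a replicate number. Of 88 values under other settings 59 stayed within their interval and 29 moved. Some of the 59 could not move. The equal peak number is that of the FOXA1dbd list itself, and FOXA1 centres are midpoints in the main setting too. Against that of all genes, the share of genes with a peak changed side in 11 of 64 settings. For HNF4A it fell below in the gene body alone (48.7% against 59.1%), the top 50% (39.5% against 47.3%), at equal peak number (55.3% against 57.3%) and slightly in the canonical transcript (61.8% against 62.0%), and at promoters in the top 50% (25% against 27.7%). FOXA1nhaa promoters fell below at 500 bp (1.32% against 2.23%), at 2500 bp (15.8% against 18.4%), with every start (18.4% against 22.7%) and at equal number (1.32% against 1.71%), and FOXA1rraa promoters at 2500 bp (10.5% against 13%) and with every start (13.2% against 17.3%). Percentages are shares of the 76 genes. With 10 kb on either side FOXA1 reached 65.8% against 69.6% of all genes, and FOXA1nhaa 48.7% against 63.5%. FOXA1rraa reached 50% against 56.1% and HNF4A 78.9% against 72.2%. In the gene body alone HNF4A had 48.7% against 59.1%. Wider or narrower windows take in more or fewer peaks by construction. The same holds for shorter lists. The top 50% of peaks gave FOXA1 30.3% against 49.2%, FOXA1dbd 10.5% against 24.2% and HNF4A 39.5% against 47.3%. At promoters they gave FOXA1 9.21% against 4.94%, FOXA1dbd 0 against 0.912% and HNF4A 25% against 27.7%. At 28831 peaks each, FOXA1 had 22.4% against 34.3%, FOXA1dbd 21.1% against 34.8%, FOXA1nhaa 15.8% against 35.1% and HNF4A 55.3% against 57.3%. HNF4A thus stood above FOXA1 in all genes too. At promoters FOXA1 had 3.95% against 1.75% and FOXA1nhaa 1.32% against 1.71%. The down-sampled FOXA1 list gave 21.1% against 39.4%, and at promoters 6.58% against 2.87%. Within 500 bp of the start FOXA1 had 6.58% against 3.56%, FOXA1dbd 0 against 0.717%, FOXA1nhaa 1.32% against 2.23% and FOXA1rraa 1.32% against 1.29%. With every annotated start FOXA1dbd had 7.89% against 8.59% and FOXA1nhaa 18.4% against 22.7%. At 2500 bp FOXA1 had 27.6% beside 25.3%, and with every start 28.9% beside 28.0%. Ranked by width, the HNF4A promoter median was percentile 64.4, beside 77.9 over all genes. Within 1000 bp of the start TGTTTAC was in 18.4% against 17.6% of all promoters, and TATTTAC in 13.2% against 18.1%. CCGGAAG was in 51.3% against 28.7% and GGGCGG in 94.7% against 82.0%. TGTTTAC and GGGCGG thus lay above all promoters here and below them in the shorter window. The canonical transcript as window and the family without its 4 paralogues were added after seeing the data and moved no value beyond its interval.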

Other observations

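The annotation holds 1377 processed pseudogenes of ribosomal proteins, reverse-transcribed copies with a median length of 471 bp. FOXA1 had a peak at 15 of them (1.09%), FOXA1nhaa at 22 (1.60%), FOXA1rraa at 8 (0.581%), HNF4A at 6 (0.436%) and FOXA1dbd at 3 (0.218%). The shares over all 9246 processed pseudogenes were 2.0%, 2.40%, 0.919%, 0.865% and 0.324%. Near-identical copies make reads hard to place, and how such reads were treated is not given in the sources used here.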
